A study of Homo sapiens with 12 samples.

Results

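The 10 genes examined here encode receptors for haematopoietic cytokines and growth factors, and were taken by name from the 59251 genes of the count table. They are CSF3R, CSF1R, CSF2RB, IL6R, IL6ST, FLT3, KIT, LIFR, OSMR and IL10RA, and 8 of them had enough reads to be tested among 13318 tested genes. RNA-Seq of HL60 cells, an established human myeloid leukemia line, compared 4 groups of 3 libraries each after 48 h. Non-treated cells received no drug, ATRA cells received 1 µM all-trans retinoic acid, CDK4/6i cells received 1 µM palbociclib, and CDK4/6i+ATRA cells received both at these doses. ATRA is a vitamin A derivative that activates nuclear retinoic acid receptors, and palbociclib inhibits the kinases that drive cells out of G1 phase. All groups came from 1 cell line, and the libraries are labelled as biological replicates, which the study's gene set analyses of these data treat as independent experiments.

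Cytokine receptors without kinase activity of their own, such as CSF3R, the IL-6 family chains and IL10RA, signal through JAK kinases bound to their cytoplasmic tails. CSF1R, FLT3 and KIT are receptor tyrosine kinases that phosphorylate themselves after a ligand joins them in pairs. In the marrow, KIT and FLT3 mark stem and progenitor cells, CSF3R carries the G-CSF signal for neutrophil production, and CSF1R carries the M-CSF signal for monocytes and macrophages.

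Total counts ranged from 12230923 to 18679544 per library, and 3 counts corresponded to 0.156 to 0.275 CPM, the depth-scaled count after TMM normalization that is used for all levels here. Of the promyelocyte markers, MPO, CTSG and CD33 were present, whereas ELANE, AZU1 and PRTN3 were listed at 0 in all 12 libraries. The latter are among 4468 genes entered on more than 1 sequence, of which 2963 had no count, beside 31154 of all 59251 genes. None of the 10 receptors is entered on more than 1 sequence. The summed promyelocyte markers stood at 6443 to 6774 CPM in non-treated cells, 348 to 403 with ATRA, 3534 to 3668 with CDK4/6i and 120 to 138 with CDK4/6i+ATRA. MPO made up most of the sum in the first 3 groups, with means of 6517, 293, 3469 and 28.0 CPM, whereas CD33 averaged 93.9, 77.9, 118 and 99.8 CPM. The 10 neutrophil and monocyte markers summed to 382 to 396, 5091 to 5226, 914 to 935 and 6902 to 7194 CPM in the same order. CYBB, NCF1 and ITGB2 made up most of that sum, with means of 2079, 1738 and 974 CPM with ATRA, whereas CD14 and FCGR3B reached at most 5 counts in any library. CXCR2 averaged 46.0 ± 1.96 CPM without treatment and 48.3 ± 4.15 CPM with CDK4/6i+ATRA (SD, n = 3). Within that sum FCGR1A fell from 7.31 ± 0.704 to 1.80 ± 0.448 CPM with CDK4/6i+ATRA (SD, n = 3, adjusted p = 5.63e-13 by edgeR), and LYZ fell to 0.332-fold with ATRA (adjusted p = 7.91e-21) but rose 1.66-fold with CDK4/6i+ATRA (adjusted p = 2.10e-12). Markers of T, B, erythroid, endothelial and stromal or epithelial cells summed to at most 3.12 CPM in any library. Megakaryocyte markers summed to 1.68 to 3.04 CPM without treatment, 3.37 to 3.73 with ATRA, 7.26 to 9.23 with CDK4/6i and 8.56 to 10.5 with CDK4/6i+ATRA. ITGA2B made up most of that sum, with means of 2.01, 3.13, 7.63 and 8.93 CPM, whereas PF4 had 0 counts in all libraries and GP9 at most 1 in any. The part of these shifts in the receptor levels was not tested.

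Across the receptors, CDK4/6i+ATRA raised CSF3R, CSF1R, CSF2RB, IL6R, IL6ST and IL10RA and lowered FLT3 and KIT, the receptors of early progenitors. Against non-treated cells, 6 of the 8 tested genes rose and 2 fell, in a comparison where 81.7% of all tested genes were called, 41.0% higher and 40.7% lower. Of the called genes 50.2% were higher, or 40.5% when scaled by library size alone instead of TMM. That scaling moved the median log2 change of all tested genes from 0.018 to −0.247. CSF1R passed the filter on low counts only through the groups with ATRA, so its comparisons with groups without ATRA, and its share in the counts given here, are a description. Without it, 5 of 7 rose. With ATRA alone 6 rose, or 5 without CSF1R, and 1 fell, beside 67.6% of all tested genes called, 32.1% higher and 35.5% lower. CDK4/6i alone raised 3 and lowered 2, beside 56.2% called, 28.3% higher and 27.9% lower. The libraries of the groups compared did not overlap for 8, 7 and 5 of the 8 genes, beside 81.8%, 70.3% and 60.7% of all tested genes. With so many genes called, these counts by themselves do not set the receptors apart. The comparisons against non-treated cells shared the same 3 control libraries. In bulk RNA, a larger share of cells of a given kind and more transcript per cell cannot be told apart.

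**Figure D1:**
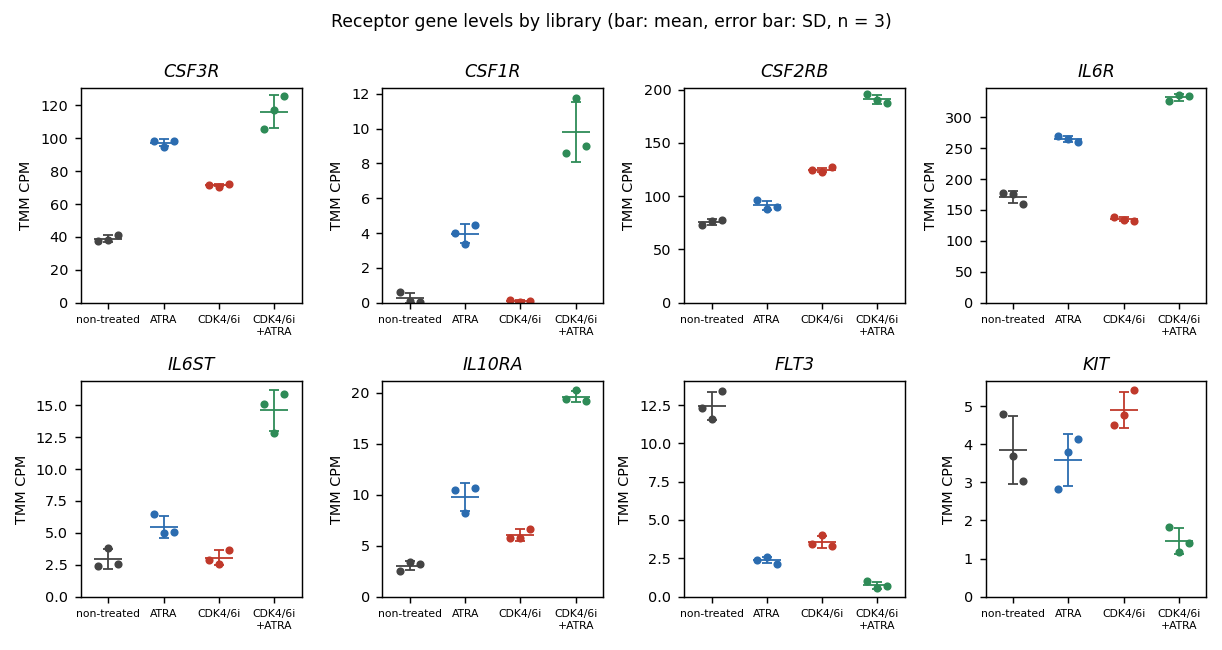
Level of each tested receptor gene in TMM CPM (vertical axis, starting at 0) in the 4 groups (horizontal axis). Points are libraries, horizontal bars are means and error bars are SD (n = 3). CSF3R, CSF2RB, IL6R, IL6ST, CSF1R and IL10RA were highest in the 3 CDK4/6i+ATRA libraries, and FLT3 and KIT were lowest there.

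CSF3R (chr1:36466043-36483314 in hg38, minus strand, 18 exon blocks), the G-CSF receptor, rose with each drug. It measured 37.3, 38.0 and 41.3 CPM in non-treated libraries, 98.5, 94.8 and 98.6 with ATRA, 71.6, 70.6 and 72.1 with CDK4/6i, and 106, 117 and 126 with CDK4/6i+ATRA. No group overlapped another, and the order from low to high was non-treated, CDK4/6i, ATRA and CDK4/6i+ATRA. ATRA raised the gene 2.50-fold (log2 1.32 ± 0.054 SE, adjusted p = 5.14e-27, edgeR quasi-likelihood test with Benjamini-Hochberg adjustment). CDK4/6i raised it 1.84-fold (log2 0.88 ± 0.056, adjusted p = 4.75e-19 by edgeR), and CDK4/6i+ATRA 2.99-fold (log2 1.58 ± 0.055, adjusted p = 2.06e-30). The step from ATRA to CDK4/6i+ATRA was 1.20-fold (log2 0.26 ± 0.049, adjusted p = 8.97e-06 by edgeR). That step depended on the scaling, since library size alone gave −0.050 (adjusted p = 0.365) while moving the median of all genes from 0.044 to −0.26.

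CSF1R (chr5:150053295-150113365, minus strand, 24 exon blocks), the receptor of M-CSF and IL-34, was near the detection floor unless ATRA was present. The non-treated libraries held 10, 2 and 1 counts and the CDK4/6i libraries 3, 1 and 2. With ATRA the counts were 65, 58 and 81, and with CDK4/6i+ATRA 94, 132 and 109, or 8.62, 11.77 and 9.01 CPM. Non-treated and CDK4/6i libraries overlapped, whereas all ATRA libraries lay above both and all CDK4/6i+ATRA libraries above ATRA. The fitted CSF1R level was 14.9-fold higher with ATRA (log2 3.90) and 36.8-fold higher with CDK4/6i+ATRA (log2 5.20) than in non-treated cells. Both values are given without an SE or p because of the filter and the few non-treated counts. The size depended on non-treated replicate 1, without which the folds were 40.9 and 100.5. Against ATRA alone the rise was 2.47-fold (log2 1.305 ± 0.20, adjusted p = 1.26e-07 by edgeR). The summed counts, 335 against 6, put CDK4/6i+ATRA 86.0-fold above CDK4/6i (95% interval 39.1 to 236.1, for counting error only). RPL7P1 lies within CSF1R on the opposite strand but shares 0 exon bases with it.

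Both promoters are shown because they are the start regions of the receptor genes for G-CSF and M-CSF. The sequences are the 150 bases before an annotated start, from RefSeq's promoters for GRCh38.p14, 5′ to 3′ on the minus strand. Capitals mark letters of motifs searched on both strands, and shares are those of all 35116 promoters with the motif in 250 upstream bases. The PU.1 core was GAGGAA (23.6% of promoters) and the C/EBP motif TTNCNNAA (33.2%). RUNX was searched as TGTGGT and also as TGCGGT (16.3%), and GATA as AGATAA (9.17%). For MYB the letters were AACGGT, with AACTGC and then AACGGC as other forms (17.7%). The half-site of retinoic acid receptors was AGGTCA, or with a first G instead GGGTCA (22.4%).
CSF1R, chr5:150086555-150086704: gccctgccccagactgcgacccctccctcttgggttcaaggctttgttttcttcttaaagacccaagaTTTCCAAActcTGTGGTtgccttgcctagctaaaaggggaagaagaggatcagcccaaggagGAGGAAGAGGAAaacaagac
CSF3R, chr1:36483315-36483464: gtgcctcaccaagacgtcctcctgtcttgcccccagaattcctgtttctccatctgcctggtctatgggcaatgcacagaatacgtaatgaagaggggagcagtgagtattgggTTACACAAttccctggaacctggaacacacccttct
The CSF1R window, before the downstream of 2 RefSeq starts, held adjacent GAGGAA motifs at positions −20 and −14, a RUNX motif at −71 and a C/EBP motif at −82. The 250 bases before its upstream start held 0 of the motifs. The window before the upstream of 2 RefSeq starts of CSF3R held C/EBP motifs at −36, −206 and −223, the last 2 outside the printed stretch, and 0 matches to the other motifs. The 250 bases before its downstream start, at position 36482913, held a PU.1 core at −111 and 0 of the other motifs. A match describes the letters only, and the gene counts do not tell which start was used.

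CSF2RB (chr22:36913628-36940439, plus strand, 14 exon blocks) encodes the signalling chain shared by the receptors for GM-CSF, IL-3 and IL-5, and it rose with either drug, with its CDK4/6i libraries above its ATRA libraries. Its levels were 72.7, 76.8 and 77.8 CPM in non-treated libraries, 96.1, 88.3 and 89.8 with ATRA, 124, 123 and 127 with CDK4/6i, and 196, 190.0 and 187 with CDK4/6i+ATRA. The groups did not overlap. The rise was 1.21-fold with ATRA (log2 0.27 ± 0.045, adjusted p = 5.97e-07 by edgeR), 1.65-fold with CDK4/6i (log2 0.72 ± 0.043, adjusted p = 6.88e-20) and 2.52-fold with both (log2 1.33 ± 0.043, adjusted p = 9.62e-32). Its ligand-binding partners, CSF2RA for GM-CSF and IL3RA for IL-3, were listed at 0 in all libraries. Both partner genes are entered on chromosomes X and Y, where 45 of 46 such genes had no count, so these zeros are not read as absence of the transcripts. IL5RA, the partner for IL-5, had 12, 13 and 19 counts in non-treated libraries, 7, 1 and 0 with ATRA, 26, 21 and 19 with CDK4/6i, and 4, 4 and 0 with CDK4/6i+ATRA. Its counts were thus lower in all 6 libraries with ATRA than in any non-treated library, the direction opposite to CSF2RB. No RefSeq promoter was matched for CSF2RB.

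Of the IL-6 family chains, IL6R and IL6ST were expressed, LIFR had 0 counts in all libraries and OSMR had 18 counts in total. IL6R (chr1:154405343-154469450, plus strand, 15 exon blocks) binds IL-6, and IL6ST, also called gp130, is the signalling chain that the family shares. IL6R measured 177, 176 and 159 CPM in non-treated libraries, 269, 265 and 260.5 with ATRA, 139, 133 and 133 with CDK4/6i, and 326, 336 and 335 with CDK4/6i+ATRA. It thus rose with ATRA and with both drugs but fell with CDK4/6i, again without overlap between groups. ATRA gave a 1.55-fold rise (log2 0.63 ± 0.039, adjusted p = 5.57e-20 by edgeR), and CDK4/6i a fall to 0.791-fold (log2 −0.34 ± 0.041, adjusted p = 5.48e-10). The rise with both drugs was 1.95-fold (log2 0.96 ± 0.039, adjusted p = 1.84e-27 by edgeR). Against ATRA alone it was 1.25-fold (log2 0.33 ± 0.038, adjusted p = 1.42e-10 by edgeR), which library size alone reduced to 0.020 (adjusted p = 0.621).

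IL6ST (chr5:55935095-55994963, minus strand, 19 exon blocks) was low in the line and rose most with the drugs together. The levels were 2.40, 3.83 and 2.59 CPM without treatment, 6.47, 4.96 and 5.03 with ATRA, 2.85, 2.57 and 3.69 with CDK4/6i, and 15.1, 12.84 and 15.9 with CDK4/6i+ATRA. CDK4/6i and non-treated libraries overlapped, and the estimate of 0.05 had a 95% interval from −0.36 to 0.46 (adjusted p = 0.846 by edgeR). ATRA raised the gene 1.87-fold (log2 0.90 ± 0.18, adjusted p = 2.86e-05 by edgeR) and CDK4/6i+ATRA 4.99-fold (log2 2.32 ± 0.17, adjusted p = 1.31e-17). Per kb of exon length, IL6R exceeded IL6ST 86.1 ± 19.8 times without treatment, 69.8 ± 9.14 times with ATRA, 64.9 ± 12.01 times with CDK4/6i and 32.7 ± 4.01 times with both (SD, n = 3). The highest CDK4/6i+ATRA ratio, 37.3, lay below the lowest of the other 9 libraries, 51.4.

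LIFR (chr5:38474668-38608403), the receptor of LIF, had no count, and OSMR (chr5:38846012-38945579), the specific chain for oncostatin M, reached at most 5 counts in a library. At this depth, 0 counts allow a level of up to 0.275 CPM in the smallest CDK4/6i+ATRA library. OSMR shares 369 exon bases with RICTOR on the opposite strand, which had 8737 counts. LIFR shares 729 exon bases with LIFR-AS1 on the opposite strand, which had 0 counts. The IL6R promoter is shown because that gene had the highest mean level per kb of the 10 receptors over the 12 libraries, with capitals as above.
IL6R, chr1:154405193-154405342, plus strand: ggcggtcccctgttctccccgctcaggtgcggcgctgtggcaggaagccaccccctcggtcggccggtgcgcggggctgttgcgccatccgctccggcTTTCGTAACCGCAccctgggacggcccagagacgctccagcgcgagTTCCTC
It held a C/EBP motif at −52 that overlaps a RUNX motif at −45 by 1 base, and PU.1 core motifs at −6 and, outside the printed stretch, −172. For IL6ST, 0 of the motifs matched in 250 upstream bases. LIFR and OSMR also held such motifs there: LIFR, over 3 RefSeq starts, had 2 PU.1 cores, 4 C/EBP motifs, a RUNX motif and 2 half-sites of retinoic acid receptors, and OSMR had a PU.1 core and a C/EBP motif. For IL10RA these were a PU.1 core, a C/EBP motif and a GATA motif.

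IL10RA (chr11:117986394-118003037, plus strand, 8 exon blocks) binds the anti-inflammatory cytokine IL-10 and pairs with the broadly expressed chain IL10RB. It rose with either drug and again with both. The levels were 2.52, 3.39 and 3.21 CPM in non-treated libraries, 10.5, 8.22 and 10.7 with ATRA, 5.70, 5.74 and 6.67 with CDK4/6i, and 19.4, 20.2 and 19.2 with CDK4/6i+ATRA. No groups overlapped. The folds were 3.21 with ATRA (log2 1.68 ± 0.15, adjusted p = 2.58e-14 by edgeR), 1.98 with CDK4/6i (log2 0.99 ± 0.16, adjusted p = 6.62e-07) and 6.44 with both (log2 2.69 ± 0.14, adjusted p = 4.39e-23). IL10RB stood at 43.7 ± 1.35 CPM without treatment, 119.7 ± 5.38 with ATRA, 47.6 ± 0.542 with CDK4/6i and 166.0 ± 14.6 with both (SD, n = 3). Per kb, IL10RB exceeded IL10RA 36.9 to 51.8 times in non-treated libraries, 32.0 to 41.5 times with ATRA, 20.4 to 24.4 times with CDK4/6i and 22.4 to 27.1 times with CDK4/6i+ATRA. The ratio ranges of ATRA and non-treated libraries overlapped, while both groups with CDK4/6i lay below them.

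FLT3 (chr13:28003274-28100576, minus strand, 27 exon blocks), the progenitor kinase receptor that is often mutated in acute myeloid leukemia, fell under every treatment. It counted 205, 185 and 238 reads, or 12.3, 11.6 and 13.4 CPM, in non-treated libraries. With ATRA it measured 2.40, 2.57 and 2.15 CPM and with CDK4/6i 3.42, 4.03 and 3.28. After both drugs, 11, 6 and 8 reads remained, or 1.01, 0.535 and 0.661 CPM. The groups did not overlap, and CDK4/6i+ATRA was lowest. ATRA lowered FLT3 to 0.191-fold (log2 −2.39 ± 0.16, adjusted p = 2.71e-18 by edgeR) and CDK4/6i to 0.287-fold (log2 −1.80 ± 0.15, adjusted p = 9.56e-15). Both drugs lowered it to 0.0593-fold (log2 −4.08, adjusted p = 5.13e-22 by edgeR), with the SE left out because of the few counts. Per kb, the CSF3R to FLT3 ratio was 3.64 ± 0.154 without treatment, 48.0 ± 5.14 after ATRA, 23.5 ± 2.73 after CDK4/6i and 199.7 ± 69.0 after both (SD, n = 3).

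KIT (chr4:54657957-54740715, plus strand, 21 exon blocks), the receptor of stem cell factor, fell with CDK4/6i+ATRA and passed the test with neither drug alone. The non-treated libraries measured 4.81, 3.70 and 3.04 CPM, ATRA libraries 2.83, 3.79 and 4.14, CDK4/6i libraries 4.51, 4.77 and 5.44, and CDK4/6i+ATRA libraries 1.83, 1.16 and 1.40. Each of the 3 CDK4/6i+ATRA libraries lay below the other 9, among which non-treated libraries overlapped both single-drug groups. CDK4/6i+ATRA lowered KIT to 0.382-fold (log2 −1.39 ± 0.26, adjusted p = 3.68e-06 by edgeR). For ATRA the estimate was −0.091 (95% interval −0.49 to 0.31, adjusted p = 0.700 by edgeR) and for CDK4/6i 0.35 (−0.028 to 0.73, adjusted p = 0.110), with the latter reaching 0.54 (adjusted p = 0.0292) without non-treated replicate 1. The 4 mast cell markers TPSAB1, CPA3, MS4A2 and HDC, genes of another KIT-positive cell type, summed to 3.01 to 3.73 CPM in non-treated libraries, 0.233 to 0.555 with ATRA, 4.51 to 4.92 with CDK4/6i and 0.578 to 0.825 with both. Between non-treated and CDK4/6i libraries the members differed in direction, with mean levels of 1.04 and 0.491 CPM for MS4A2, 0.986 and 1.72 for CPA3, and 1.304 and 2.32 for HDC. Their part in the KIT levels was not tested.

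The upstream sequences of both progenitor receptors are shown with the same marks.
FLT3, chr13:28100577-28100726, minus strand: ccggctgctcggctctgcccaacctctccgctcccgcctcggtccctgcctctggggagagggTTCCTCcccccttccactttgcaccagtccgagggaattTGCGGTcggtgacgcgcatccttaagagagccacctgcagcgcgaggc
KIT, chr4:54657807-54657956, plus strand: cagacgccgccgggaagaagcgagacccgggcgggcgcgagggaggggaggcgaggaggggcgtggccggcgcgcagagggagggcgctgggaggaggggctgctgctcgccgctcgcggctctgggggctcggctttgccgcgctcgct
FLT3 held a PU.1 core at −87 and a RUNX motif at −48, and KIT held 0 matches to the 6 motifs in 250 upstream bases. Neither these letters nor their absence says which factor acts on the gene.

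**Figure D2:**
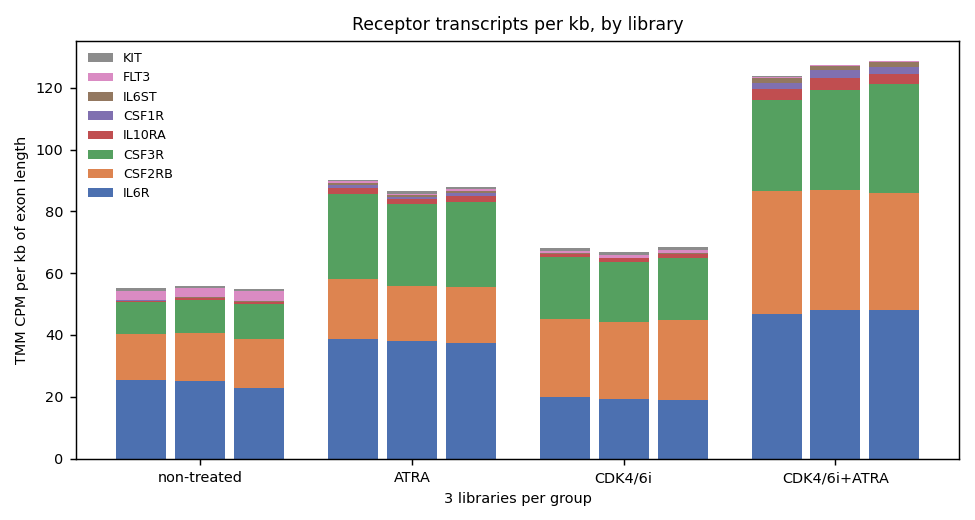
Stacked bars of TMM CPM per kb of exon length (vertical axis, from 0) for the 8 tested receptor genes in each of the 12 libraries (horizontal axis, 3 per group). IL6R, CSF2RB and CSF3R made up most of every bar, and the bars were tallest with CDK4/6i+ATRA.

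On the scale of CPM per kb, the 10 genes summed to 55.3 ± 0.548 without treatment, 88.2 ± 1.90 after ATRA, 67.9 ± 0.794 after CDK4/6i and 126.7 ± 2.64 after both (SD, n = 3). IL6R held 44.2 ± 2.27% of that sum without treatment, 43.0 ± 0.753% with ATRA, 28.5 ± 0.656% with CDK4/6i and 37.6 ± 0.306% with both. With CDK4/6i alone, CSF2RB took the leading share at 37.4 ± 0.355%, ahead of CSF3R at 29.4 ± 0.0813%. FLT3 went from 5.39 ± 0.445% in non-treated cells to 0.140 ± 0.0495% with CDK4/6i+ATRA, and CSF1R from 0.113 ± 0.129% to 1.85 ± 0.312%. Non-treated cells therefore held more FLT3 than CSF1R transcript per kb, and CDK4/6i+ATRA cells held more CSF1R than FLT3.

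**Figure D3:**
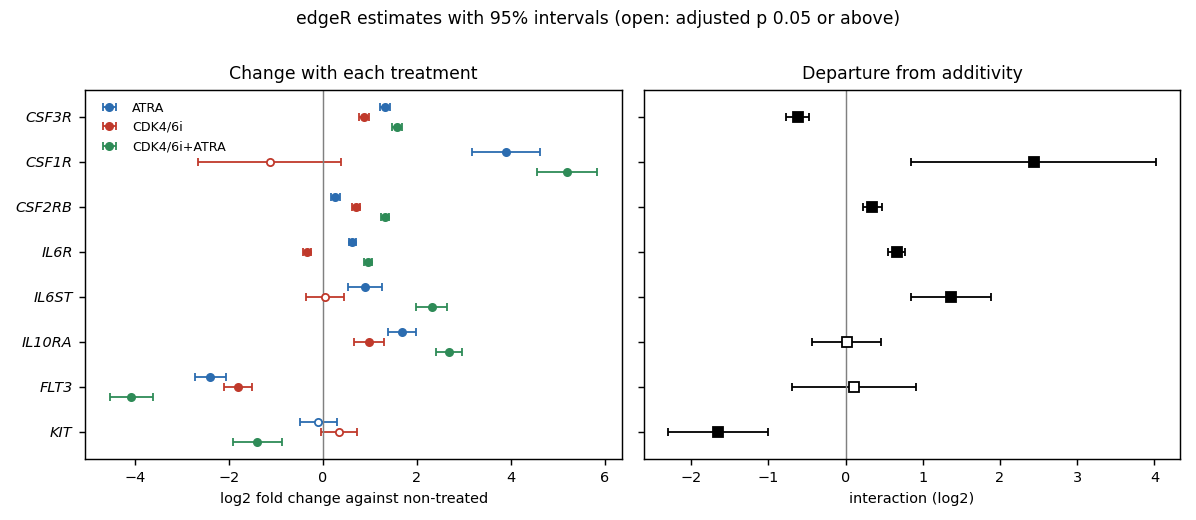
Left, log2 fold change against non-treated cells for ATRA (blue), CDK4/6i (red) and CDK4/6i+ATRA (green). Right, the interaction of the drugs on the log2 scale, where 0 means that the folds multiply. Bars are 95% intervals and open symbols did not pass the threshold, and the interaction intervals of FLT3 and IL10RA span 0.

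Whether the drugs acted together beyond their separate effects was tested as an interaction on the log2 scale, in which 0 means that the 2 single-drug folds multiply. The interaction was above 0 for 4 of the 8 tested receptors, below 0 for 2 and not called for 2, against 51.4% called among all genes, 24.5% above and 27.0% below 0. It was above 0 for IL6ST (1.36 ± 0.26 SE, adjusted p = 1.13e-05 by edgeR), IL6R (0.66 ± 0.056, adjusted p = 1.50e-14) and CSF2RB (0.35 ± 0.061, adjusted p = 3.56e-06). For IL6ST, multiplied folds would give 5.66 CPM, and 14.6 ± 1.58 (SD, n = 3) was measured. For IL6R the corresponding values were 209 and 332 ± 5.49 CPM, and for CSF2RB 150.4 and 191 ± 4.44 CPM. The CSF2RB interaction was 0.027 (adjusted p = 0.742) under library size alone, a scaling that moved the median interaction of all genes from −0.022 to −0.34, that of IL6R to 0.34 (adjusted p = 4.36e-07) and that of CSF3R to −0.94 (adjusted p = 1.40e-13). The fourth was CSF1R, whose estimate of 2.44 ± 0.79 is a description because of the filter. It rested on non-treated replicate 1, without which it was 0.97 (adjusted p = 0.526 by edgeR).

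CSF3R and KIT departed in the other direction. CSF3R reached 116 ± 10.1 CPM with both drugs where multiplied folds would give 179 (interaction −0.62 ± 0.075, adjusted p = 7.38e-10 by edgeR). KIT measured 1.47 ± 0.341 CPM where multiplied folds would give 4.58 (interaction −1.65 ± 0.32, adjusted p = 2.24e-05 by edgeR). FLT3 and IL10RA gave estimates of 0.11 (95% interval −0.69 to 0.92, adjusted p = 0.840 by edgeR) and 0.014 (−0.43 to 0.46, adjusted p = 0.968). For these genes the measured levels were 0.735 ± 0.245 CPM and 19.6 ± 0.554 CPM, beside 0.683 and 19.4 CPM from multiplied folds. If the differences in CPM added instead, IL10RA would stand at 12.79 CPM, below the 3 measured libraries, and FLT3 below 0. On that scale CSF3R would stand at 129.9 CPM, CSF2RB at 140.3, IL6R at 229 and IL6ST at 5.58.

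Against each single drug, CDK4/6i+ATRA changed all 8 tested receptors, with 6 higher and 2 lower in both comparisons. Under library size alone CSF3R (log2 −0.050, adjusted p = 0.365 by edgeR) and IL6R (log2 0.020, adjusted p = 0.621) were not called against ATRA, which left 4 higher and 2 lower. Among all tested genes, 69.8% were called against ATRA (36.9% higher, 32.8% lower) and 78.6% against CDK4/6i (39.1% higher, 39.5% lower). The libraries did not overlap for 71.9% and 78.9% of all tested genes, and for 8 of these 8 in both comparisons. CSF1R passed the filter on low counts only through the groups with ATRA, so its share in the counts against CDK4/6i is a description. With so many genes called, these counts by themselves do not set the receptors apart. Of genes called against ATRA, 53.0% were higher, or 31.6% under library size alone; against CDK4/6i these shares were 49.8% and 36.7%, and for the interaction 47.5% and 18.5%. The steps above ATRA ranged from 1.20-fold for CSF3R to 2.67-fold for IL6ST. FLT3 fell to 0.310-fold of its ATRA level (log2 −1.69 ± 0.30, adjusted p = 2.51e-06 by edgeR) and KIT to 0.407-fold (log2 −1.298 ± 0.26, adjusted p = 1.81e-05).

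The ligands of these receptors were led by LIF and CSF1. Of 19 ligand genes, 7 were tested, and with CDK4/6i+ATRA 5 rose and 2 were not called, beside 81.7% of all tested genes called, 41.0% higher and 40.7% lower. LIF, CSF1 and IL10 passed the filter on low counts only through groups in which they were high, so these counts are a description. LIF, a cytokine of the IL-6 family, had 2, 2 and 1 counts in non-treated libraries, 188, 190 and 154 with ATRA, 0, 3 and 0 with CDK4/6i, and 1777, 1790 and 1859 with CDK4/6i+ATRA. Over the group sums, 5426 against 5 counts gave a ratio of 1596 (95% interval 683 to 4917, counting error only) for CDK4/6i+ATRA over non-treated cells. Transcripts of LIF were thus abundant in cells in which those of its receptor LIFR were not detected.

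CSF1, which encodes M-CSF, measured 0.421, 0.188 and 0.451 CPM in non-treated libraries, 13.3, 12.4 and 12.9 with ATRA, 0.0519, 0.794 and 0.351 with CDK4/6i, and 177, 169 and 177 with CDK4/6i+ATRA. The fitted CSF1 level was 477-fold higher with both drugs than in non-treated cells (log2 8.90). It is given without an SE or p because of the filter and the few counts, 7, 3 and 8, in non-treated libraries. OSM, for oncostatin M, rose 3.01-fold with both drugs (adjusted p = 8.34e-11 by edgeR) to 8.71 ± 1.11 CPM (SD, n = 3).

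KITLG and FLT3LG, the ligands of KIT and FLT3, moved the other way from their receptors with CDK4/6i+ATRA. KITLG rose 2.21-fold (log2 1.14 ± 0.35, adjusted p = 0.00314 by edgeR) and FLT3LG 1.76-fold (log2 0.81 ± 0.26, adjusted p = 0.00423). With CDK4/6i alone, KITLG had 1, 3 and 2 counts against 14, 18 and 17 in non-treated libraries. FLT3LG was highest with ATRA, at 4.44 ± 0.360 CPM, against 1.60 ± 0.311 in non-treated cells and 2.82 ± 0.393 with both (SD, n = 3). IL10 was counted 20, 17 and 19 times with ATRA, but 2, 0 and 0 times in non-treated, 0, 0 and 1 times in CDK4/6i and 0, 2 and 0 times in CDK4/6i+ATRA libraries. IL10 transcripts were therefore seen mainly in ATRA libraries, while its receptor chain IL10RA was highest with both drugs. CSF3, IL34, CSF2 and IL3 had 0 counts in all libraries, IL5, IL6 and IL11 at most 2 in any library, and CLCF1 averaged 0.710 to 0.928 CPM in the 4 groups.

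**Figure D4:**
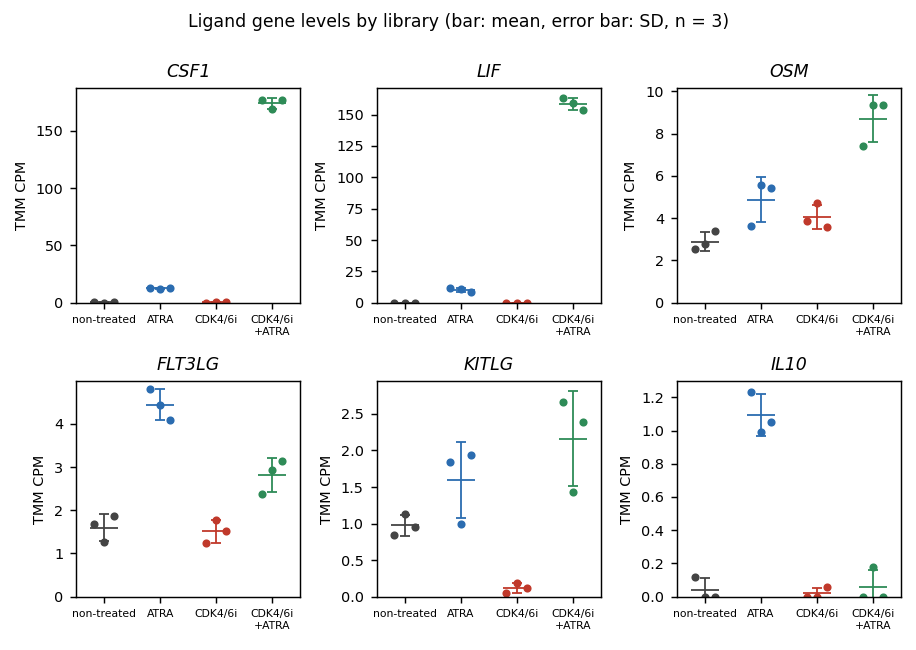
Level of 6 ligand genes in TMM CPM (vertical axes from 0, each with its own scale) in the 4 groups (horizontal axis). Points are libraries, horizontal bars are means and error bars are SD (n = 3). CSF1 and LIF reached 174 and 159 CPM on average with CDK4/6i+ATRA, and IL10 was highest with ATRA alone.

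Of 23 receptor-proximal signalling genes, which include kinases and adaptors that carry the signal and proteins that restrain it, 20 were tested. With CDK4/6i+ATRA 18 rose and 2 fell (median log2 change 1.26), beside 81.7% of all tested genes called, 41.0% higher and 40.7% lower. JAK2, the kinase of the CSF2RB chain, rose 5.61-fold (log2 2.49 ± 0.067, adjusted p = 2.55e-35 by edgeR) from 15.1 ± 0.704 to 84.7 ± 4.08 CPM (SD, n = 3). JAK1 and TYK2, which serve the gp130 and IL-10 receptor chains, rose 2.29-fold (adjusted p = 4.56e-31 by edgeR) and 3.06-fold (adjusted p = 1.68e-35). DOK2, an adaptor that restrains tyrosine kinase signals, rose 29.9-fold (adjusted p = 3.47e-45 by edgeR), the Src-family kinase LYN 9.29-fold (adjusted p = 6.23e-47), the adaptor SH2B2 8.80-fold (adjusted p = 9.41e-14) and the phosphatase PTPRC, or CD45, 6.40-fold (adjusted p = 5.74e-46). The falls were in PTPN11, the phosphatase SHP2, to 0.749-fold (adjusted p = 2.63e-14 by edgeR), and SOS1, an activator of RAS, to 0.803-fold (adjusted p = 3.81e-06). With ATRA alone 16 of the 20 rose and 2 fell, beside 32.1% of all tested genes higher and 35.5% lower. With CDK4/6i alone 10 rose and 1 fell, beside 28.3% higher and 27.9% lower. PTPRC is among the genes entered on more than 1 sequence, and whether its counts are complete was not tested.

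Of 13 genes for receptor shedding, trafficking and turnover, 10 were tested, and 9 rose and 1 fell with CDK4/6i+ATRA (median log2 change 0.82), beside 41.0% higher and 40.7% lower among all tested genes. ADAM17 and ADAM10, proteases that release the outer parts of IL6R, CSF1R and other receptors, rose 3.70-fold (adjusted p = 2.71e-36 by edgeR) and 2.702-fold (adjusted p = 3.27e-35). RHBDF2, which guides ADAM17 to the cell surface, rose 1.98-fold (adjusted p = 1.39e-09 by edgeR), and STAM2, an endosomal sorting protein, 2.99-fold (adjusted p = 6.36e-28). SORL1, a sorting receptor, fell to 0.482-fold (adjusted p = 4.37e-29 by edgeR). ADAM17 with CDK4/6i alone measured 45.5 ± 1.22 CPM, beside 42.6 ± 0.769 in non-treated cells (SD, n = 3, adjusted p = 0.117 by edgeR).

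Among 36 other cytokine and growth factor receptors, 19 were tested, of which 13 rose and 3 fell with CDK4/6i+ATRA, and 3 were not called. Some of them, such as IL2RA, passed the filter on low counts only through groups in which they were high, so these counts are a description. Over all tested genes 81.7% were called, 41.0% higher and 40.7% lower. IL2RA, the alpha chain of the IL-2 receptor, had 0 counts in all non-treated and CDK4/6i libraries, 46, 36 and 39 with ATRA, and 104, 112 and 117 with CDK4/6i+ATRA. With 3 counts over the non-treated group as the floor, it was at least 163-fold higher with both drugs. IL2RG, the common gamma chain, rose 5.95-fold (adjusted p = 5.45e-40 by edgeR), and the interferon receptor chains IFNGR2 and IFNAR2 6.08-fold (adjusted p = 3.11e-26) and 4.48-fold (adjusted p = 1.26e-32). FLT4, a vascular growth factor receptor, averaged 10.2 CPM without treatment, 13.4 with ATRA and 1.46 with CDK4/6i. With CDK4/6i+ATRA, 1, 7 and 2 counts remained, a fall to 0.0293-fold (log2 −5.09, adjusted p = 6.06e-22 by edgeR). That log2 change was −6.22 without CDK4/6i+ATRA replicate 2. EPOR, the erythropoietin receptor, fell to 0.264-fold (adjusted p = 1.59e-14 by edgeR). IFNGR2 is among the genes entered on more than 1 sequence, and whether its counts are complete was not tested.

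Of 18 genes for transcription factors that act on receptor genes, 13 were tested, with 7 higher and 6 lower with CDK4/6i+ATRA (median log2 change 0.24). That split is near the 41.0% higher and 40.7% lower of all tested genes. These values rest on TMM, since library size alone moved the median of all tested genes from 0.018 to −0.247. CEBPB, a C/EBP factor of activated myeloid cells, rose from 37.3 ± 1.81 to 329 ± 11.3 CPM (SD, n = 3), or 8.83-fold (adjusted p = 1.03e-45 by edgeR). With CDK4/6i alone CEBPB stood at 38.5 ± 2.52 CPM. CEBPD rose 4.04-fold (adjusted p = 2.28e-26 by edgeR), RARA, the retinoic acid receptor alpha, 4.16-fold (adjusted p = 4.25e-38), and MITF 6.10-fold (adjusted p = 8.40e-17). SPI1, which encodes PU.1, RUNX1, CEBPE and RXRA are given because their motifs were searched in the promoters, and were chosen after their values were seen. SPI1 averaged 301.8 ± 3.03 CPM without treatment, 463 ± 12.2 with ATRA, 362 ± 3.81 with CDK4/6i and 855 ± 15.5 with both (SD, n = 3). RUNX1 averaged 93.5 ± 3.00, 133 ± 4.08, 91.7 ± 1.39 and 110.2 ± 2.15 CPM in the same order. For CEBPE the means were 169.6, 410, 197 and 285 CPM, and for RXRA 168.6, 76.2, 196 and 96.4 CPM. MYB, a factor of cycling progenitors, fell to 0.0331-fold (adjusted p = 1.99e-50 by edgeR), GATA2 to 0.0664-fold (adjusted p = 1.04e-46), CEBPA to 0.203-fold (adjusted p = 8.29e-43) and GFI1 to 0.339-fold (adjusted p = 1.27e-35). MYB averaged 341 ± 5.72 CPM without treatment, 73.7 ± 1.45 after ATRA, 370.3 ± 6.43 after CDK4/6i and 11.2 ± 1.42 after both (SD, n = 3). GATA2 was likewise lower with ATRA and higher with CDK4/6i, at 30.5 ± 1.16 and 260.6 ± 2.79 CPM against 222 ± 2.50 in non-treated cells.

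Among the receptors themselves, Pearson's correlation over the 12 libraries on log2(CPM + 1) was closest between CSF3R and FLT3 (r = −0.978) and between CSF1R and IL6R (r = 0.974). It was 0.462 between CSF2RB and IL6R and 0.626 between FLT3 and KIT. The 12 points fall into 4 treatment groups, so these values describe the order of the groups. Over all genes with a mean of at least 5 CPM, the closest patterns were CNN2 for CSF3R (r = 0.994), SLCO3A1 for CSF1R (r = 0.994), TRIM44 for CSF2RB (r = 0.997), KLHL5 for IL6R (r = 0.996), RSF1 for IL6ST (r = 0.989), LRCH4 for IL10RA (r = 0.994), SETD1A for FLT3 (r = 0.986) and TMEM273 for KIT (r = 0.964). KIT thus had the least close partner of the 8, and IL6R had 24 genes above 0.99.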

How the data were processed

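Gene-level RNA-Seq of 12 HL60 libraries was analysed from raw counts that the authors deposited, whole numbers without normalization. The reads had been trimmed with Trimmomatic 0.33 and aligned to hg38 with STAR 2.7.11a under the NCBI RefSeq annotation, per the labels and methods. The table also holds exon positions and lengths in the layout of featureCounts, while the methods name RSEM, and the strand setting of counting is not given in the sources used here. The kit was directional. The authors tested with DESeq2.

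Groups came from the labels. Genes were filtered with filterByExpr, scaled with TMM and tested with edgeR 4.0.16 (R 4.3.3), in which the 4 groups formed the model and a two-sided quasi-likelihood F test, with 8 residual degrees of freedom, gave each contrast. P-values were adjusted by Benjamini-Hochberg over 13318 genes at 0.05. The SE was taken as the absolute log2 change divided by the square root of F, and intervals are at 95%. With few counts such an SE can fall below the counting error. For CSF1R with CDK4/6i+ATRA against CDK4/6i, it gave 48.3 to 134.3-fold, and counting error alone 39.1 to 236.1-fold. Counts were simulated with 200 genes above 1 CPM changed, as many up as down, and all other genes equal between groups. For ATRA against non-treated, edgeR called 191 of these 200, with 9 false calls among 13019 genes. For the interaction it called 177 of 200, with 8 false calls among 13017 genes. Of 50 genes changed 1.5-fold it called 44 for ATRA and 32 for the interaction. In the data, 67.6% of tested genes were called for ATRA and 81.7% for CDK4/6i+ATRA against non-treated. The simulation, with so few genes changed, does not test the scaling under such broad change. Pearson correlations used a pseudocount of 1 CPM.

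The receptors and gene lists were chosen with earlier results of these data known. All 10 receptors, their ligands, partner chains and JAK1, JAK2 and TYK2 were named. From each other list, up to 4 rises and 4 falls with the largest change with CDK4/6i+ATRA were named, at a mean of at least 1 CPM. Single cell type markers, SPI1, RUNX1, CEBPE and RXRA were named after their values were seen. Promoters came from RefSeq (GRCh38.p14), with 13 entries for 9 of the 10 receptors. As alternatives, DESeq2 1.42.0 replaced edgeR, TMM gave way to DESeq2's size factors or to library size alone, and the filter was dropped or set to 10 counts in every library. Others fitted the replicate number as a block, used only the 2 groups of a contrast, or left out 1 library.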

Additional observations from a re-analysis of the deposited data

Results flagged for a closer look

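For 6 of the 8 tested receptor genes, beside 51.4% of all tested genes, the effect of ATRA differed between cells with and without CDK4/6i by the interaction test of edgeR. On the log2 scale, the effect with CDK4/6i minus that without was 2.44 for CSF1R, 1.36 for IL6ST, 0.66 for IL6R and 0.35 for CSF2RB, and −0.62 for CSF3R and −1.65 for KIT. For KIT, ATRA changed the level by −0.091 without CDK4/6i and by −1.74 with it. For IL6R, CDK4/6i changed the level by −0.34 without ATRA and by 0.33 with it. CSF1R passed the filter on low counts only through the groups with ATRA, and its value is 0.97 (adjusted p = 0.526 by edgeR) without non-treated replicate 1. Under library size alone the CSF2RB value is 0.027 (adjusted p = 0.742 by edgeR), and the IL6R change of 0.33 with ATRA present is 0.020 (adjusted p = 0.621).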

How the results depend on the processing

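The number of receptors called in each comparison stayed within 1.5 times the reported count under all alternatives. Of 891 tests of single receptors under alternatives, 3 lost the call with the direction kept, 1 gained it and 19 changed direction, while the rest kept both. Of the 19, 1 also lost its call, CSF3R against ATRA under library size alone (−0.050). With that scaling the interaction was −0.20 for FLT3 and −0.30 for IL10RA, and levels with CDK4/6i+ATRA fell to 100.1 CPM for CSF3R and 286 for IL6R. The IL10RA interaction was −0.0073 with DESeq2's size factors, −0.072 without a filter and −0.0088 with DESeq2. The other changes of direction came from leaving out 1 library. They ranged from −0.24 to 0.10 for KIT with ATRA, −1.63 to 0.33 for CSF1R and −0.10 to 0.28 for IL6ST with CDK4/6i, and −0.17 to 0.28 for FLT3 and −0.10 to 0.12 for IL10RA in the interaction. None of these 5 values had passed the threshold, and the cause was not tested. OSM and IFNGR2 with CDK4/6i lost their calls without some single libraries, at 0.37 to 0.45 and 0.31 to 0.32.

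Same-numbered libraries did not deviate together (correlations from −0.11 to 0.070), so the numbers were not taken as pairs. With the replicate number as a block, all 48 receptor tests kept their direction and call, and the interaction had 6775 calls in place of 6852. FLT3 with CDK4/6i+ATRA (6 to 11 counts), FLT4 with CDK4/6i+ATRA (1 to 7 counts) and CSF1R without ATRA (1 to 10 counts) are limited by depth.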
